A study of Mus musculus with 12 samples.

Results

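The genes described here are 35 transcriptional targets of the tumour suppressor p53. They were chosen by symbol from general knowledge of the p53 response, with earlier results of these data known. All 35 were rows of the gene count table, which held 38215 genes, and 34 of them passed the filter on low counts, as did 14983 genes in all. Perp, the remaining member, had 4 counts in all 12 libraries together and was not tested. The cells were RAW264.7, an established line of mouse macrophages transformed by Abelson leukaemia virus. They received either a non-targeting control siRNA or an siRNA against Sf3a1, and 24 h later were either left without LPS or exposed for 4 h to 20 ng/ml LPS, the bacterial cell wall component that TLR4 senses. Each siRNA was thus combined with the presence and the absence of LPS, and each of the 4 groups held 3 libraries of polyadenylated RNA. The study compared them to learn what inhibition of SF3a1 does to mRNA levels and splicing in resting and in LPS-stimulated macrophages.

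The libraries held 12746019 to 41091887 reads counted on genes, and replicate 1, sequenced in 2 runs, was the deepest library of every group. The share of reads that htseq-count assigned to no annotated feature was 17.8% to 19.8% in the control libraries and 18.2% to 27.2% in the knockdown libraries. Whether these reads lay in introns or between genes was not examined. The highest share was that of replicate 1 of SF3a1 siRNA without LPS. The part of these reads in the results below was not tested, and counts of changed genes without the 4 replicate 1 libraries are given beside the first result. The macrophage identity of the cultures was evident from the 8 macrophage markers examined, whose summed level was 9834 to 16480 CPM (counts scaled to a common library total by edgeR's TMM method) in every library, with Lyz2 the most abundant. Markers of T cells, B cells, neutrophils, fibroblasts, epithelium and endothelium summed to at most 1.83 CPM for any of these cell types in any library.

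Sf3a1 itself (ENSMUSG00000002129, chr11:4160350-4182541 of mm10) encodes a subunit of SF3A, which is part of the U2 snRNP that recognises the branch point of introns. It was present at 173, 216 and 185 CPM with control siRNA and 27.1, 27.5 and 32.1 CPM with SF3a1 siRNA in the absence of LPS. With LPS it was present at 150.0, 194 and 157 CPM with control siRNA and 30.3, 26.7 and 45 CPM with SF3a1 siRNA. Every library with SF3a1 siRNA lay below every library with control siRNA, as the labels require. The log2 fold change of Sf3a1 was -2.73 ± 0.20 (edgeR adjusted p = 1.14e-05) without LPS and -2.30 ± 0.20 (edgeR adjusted p = 1.47e-05) with LPS, where ± gives the standard error of the fit throughout.

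In unstressed cells p53 is kept scarce by the ubiquitin ligase Mdm2, which is itself encoded by a p53 target gene. When DNA damage, nucleolar stress or other insults relieve this control, p53 accumulates, binds as a tetramer to a pair of adjacent decamers in the DNA near its target genes, and activates their transcription. The products arrest the cell cycle, repair DNA, retune metabolism or kill the cell. In macrophages, LPS acts on some of the same genes through other factors, Fas being a known example.

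The p53 element was looked for in the promoters of the members, from 250 bases before to 50 bases after the start of each RefSeq gene (GRCm38.p6, the assembly also called mm10), as a pair of abutting decamers (10 bases each) with at most 2 mismatches to the p53 consensus. The core C and G of each decamer had to match, so mismatches were allowed only at the other bases. The element is its own reverse complement, so a search of either strand covers both. Of the 35 members, 27 had a promoter in the reference table, and 3 of these (11.1%) held such an element, Cdkn1a, Ccng1 and Rps27l, against 106 of all 27025 genes with a promoter there (0.392%). With 3 mismatches allowed, Aen, Sesn1 and Tigar joined them (6 members, 22.2%, against 441 genes, 1.63%). The members were chosen as known p53 targets, so the choice itself favours such elements, and the difference is not read as a result. The 3 closest matches are shown because they place the factor's recognition sequence in genes whose RNA was measured here, and the one of Cdkn1a adjoins a first exon whose use is reported at the end. Each is written 5′ to 3′ on the gene's strand with 30 bases on either side of the element, whose 20 bases are in capitals, and each has 1 mismatch to the consensus.
Cdkn1a, chr17:29090898-29090977, forward strand: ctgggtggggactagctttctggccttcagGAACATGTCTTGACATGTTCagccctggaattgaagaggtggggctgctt
Ccng1, chr11:40755432-40755511, reverse strand: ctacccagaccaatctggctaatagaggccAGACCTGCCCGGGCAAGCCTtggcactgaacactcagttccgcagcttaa
Rps27l, chr9:66946266-66946345, forward strand: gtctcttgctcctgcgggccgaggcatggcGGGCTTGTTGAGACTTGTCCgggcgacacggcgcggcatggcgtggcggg
These sequences come from RefSeq. A match is a description of the letters and does not show that p53 was bound there in these cells.

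SF3a1 siRNA raised most of the p53 target genes, both in resting and in LPS-treated macrophages. Without LPS, 20 of the 34 members tested were higher with SF3a1 siRNA than with control siRNA, 2 were lower (Ddb2 and Polh) and 12 did not pass the test, where a gene passed if its p in the quasi-likelihood test of edgeR, adjusted by Benjamini-Hochberg over all 14983 genes, was at most 0.1. Among all genes tested 33.8% were called in that comparison, 13.7% as higher and 20.1% as lower. With LPS, 22 members were higher, 4 were lower (Btg2, Fas, Apaf1 and Rrm2b) and 8 did not pass the test, while of all genes 38.8% were called, 18.4% as higher and 20.4% as lower. The median log2 fold change of the members was 1.25 without LPS and 1.01 with LPS, against a median of -0.02 and -0.04 over all genes tested. All 3 libraries with SF3a1 siRNA lay above all 3 with control siRNA for 21 members without LPS and for 22 with LPS, where 20.2% and 18.0% of all genes did so. The opposite arrangement held for 2 and 3 members, and for 25.4% and 21.1% of all genes.

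The comparisons with and without LPS share no libraries, but both come from 1 fit of all 12 libraries with a common estimate of the spread. They are therefore not fully independent. Called higher in both were 17 members, which is 17 of the 20 higher without LPS and 17 of the 22 higher with LPS. Of all genes 9.57% were higher in both, which is 69.7% of those higher without LPS and 52.1% of those higher with LPS. The members were Cdkn1a, Ccng1, Plk2, Phlda3, Inka2, Zmat3, Tnfrsf10b, Eda2r, Ei24, Aen, Trp53inp1, Polk, Sesn2, Tigar, Ephx1, Dcxr and Ak1. Called in neither were Pmaip1, Triap1, Gdf15, Fdxr and Rps27l, and no member was called lower in both. Called higher with LPS only were Psrc1, Pidd1, Xpc, Polh and Sesn1, all of which LPS lowered in control cells. Of the 22 members higher with LPS, 13 were called lower with LPS in the control libraries, the reference of that comparison. What this contributes to the count of 22 was not tested, and the same share was not counted over all genes. Without the 4 replicate 1 libraries, 25 members were called without LPS (23 higher and 2 lower), against 41.3% of all genes in the same fit, and 27 with LPS (22 higher and 5 lower), against 45.1%. RNA was taken from whole cultures, so that a change in RNA per cell and a change in which cells were present cannot be told apart.

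**Figure D1:**
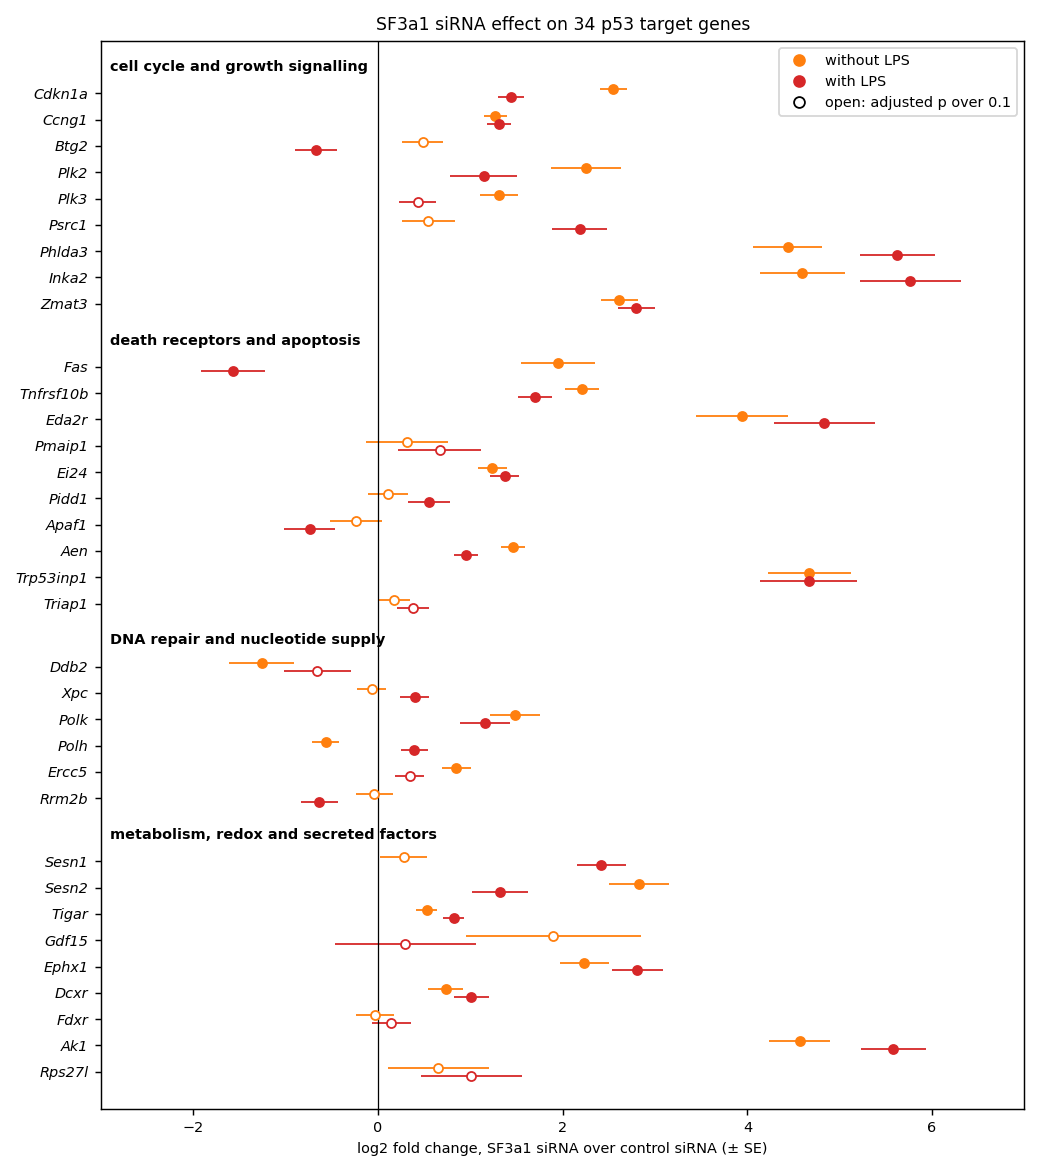
Log2 fold change of SF3a1 siRNA over control siRNA (x axis, ± SE) for the 34 p53 target genes tested, by role, without LPS (orange) and with LPS (red). Filled points passed an adjusted p of 0.1. Most points lie to the right of 0, and Phlda3, Inka2, Eda2r, Trp53inp1 and Ak1 stand farthest to the right in both comparisons.

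Among the 9 members that act on the cell cycle and on growth signalling, 7 were higher and 0 lower without LPS, where 13.7% and 20.1% of all genes were. With LPS 7 were higher and 1 lower, where 18.4% and 20.4% of all genes were. Cdkn1a (ENSMUSG00000023067, chr17:29090976-29100727) encodes the cyclin-dependent kinase inhibitor p21 and is the best known p53 target. It was present at 226, 247 and 209 CPM with control siRNA and 1389, 1377 and 1222 CPM with SF3a1 siRNA without LPS. With LPS it was present at 607, 785 and 723 CPM and 1943, 2018 and 1779 CPM. The 4 groups did not overlap, and the lowest library with SF3a1 siRNA alone was above the highest with LPS alone. SF3a1 siRNA raised Cdkn1a 5.85-fold without LPS (log2 fold change 2.55 ± 0.14, edgeR adjusted p = 4.03e-06) and 2.71-fold with LPS (log2 fold change 1.44 ± 0.14, edgeR adjusted p = 2.69e-05). Ccng1, which encodes cyclin G1, a partner of protein phosphatase 2A in the regulation of Mdm2, was at 106 to 113 CPM with control siRNA and 258 to 278 CPM with SF3a1 siRNA without LPS. The increase was of like size in both comparisons (1.27 ± 0.13 without and 1.31 ± 0.13 with LPS on the log2 scale, edgeR adjusted p = 4.34e-05 and 2.76e-05).

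Phlda3 (ENSMUSG00000041801, chr1:135766119-135769136), whose product competes with Akt for membrane lipids, was scarce in control cells and abundant after knockdown. Its levels were 7.04, 9.2 and 9.03 CPM with control siRNA and 165, 204 and 175 CPM with SF3a1 siRNA without LPS, and 1.29, 3.9 and 4.32 CPM and 207, 122 and 117 CPM with LPS. The groups were far apart in both comparisons, with a 21.6-fold difference without LPS (log2 fold change 4.43 ± 0.38, edgeR adjusted p = 1.79e-05) and a 49.3-fold difference with LPS (log2 fold change 5.62 ± 0.41, edgeR adjusted p = 6.14e-06). Inka2 (ENSMUSG00000048458, chr3:105704599-105720842), an inhibitor of the kinase PAK4, behaved alike at a lower level. It was at 0.963, 1.52 and 1.58 CPM with control siRNA and 19.9, 41 and 36.1 CPM with SF3a1 siRNA without LPS, and at 0.105, 0.318 and 0.561 CPM and 9.11, 19.3 and 19.2 CPM with LPS. The lowest library of each group was replicate 1, yet no library with SF3a1 siRNA came near a control library. The log2 fold changes of Inka2 were 4.60 ± 0.46 (edgeR adjusted p = 4.34e-05) without LPS and 5.76 ± 0.54 (edgeR adjusted p = 2.63e-05) with LPS. Zmat3 (ENSMUSG00000027663, chr3:32334792-32366014), a zinc finger protein that binds RNA and takes part in splicing and in mRNA decay, was at 44.3, 36.2 and 30.9 CPM with control siRNA and 239, 235 and 208 CPM with SF3a1 siRNA without LPS. With LPS the values were 24.1, 25 and 18.6 CPM and 186, 122 and 163 CPM. Every library with SF3a1 siRNA held far more Zmat3 RNA than any control library, and the log2 fold changes were 2.61 ± 0.20 (edgeR adjusted p = 1.14e-05) and 2.80 ± 0.20 (edgeR adjusted p = 6.05e-06).

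The Polo-like kinases Plk2 and Plk3, which act in stress responses, also rose without LPS. Plk2 (ENSMUSG00000021701, chr13:110395046-110400844) was at 7.27, 3.8 and 4.47 CPM with control siRNA and 25.8, 24.9 and 23.9 CPM with SF3a1 siRNA without LPS, and at 21.1, 8.11 and 9.03 CPM and 37.7, 19.4 and 28.5 CPM with LPS. The groups did not overlap without LPS but did with LPS, where replicate 1 of control siRNA exceeded replicate 2 of SF3a1 siRNA. The log2 fold changes of Plk2 were 2.25 ± 0.38 (edgeR adjusted p = 0.000941) without LPS and 1.15 ± 0.36 (edgeR adjusted p = 0.0298) with LPS. The latter call was lost on leaving out any of 3 libraries with LPS (control siRNA replicate 2 or 3, SF3a1 siRNA replicate 1; edgeR adjusted p 0.106 to 0.111), and the log2 fold change was 1.74 without control siRNA replicate 1. Plk3 was at 19.6, 20.8 and 15.9 CPM with control siRNA and 39.7, 56 and 43.8 CPM with SF3a1 siRNA without LPS, and at 80.0, 58.3 and 50.1 CPM and 82.5, 98 and 74.1 CPM with LPS. It was higher without LPS (log2 fold change 1.31 ± 0.20, edgeR adjusted p = 0.000609), whereas the groups overlapped with LPS (log2 fold change 0.43 ± 0.20, edgeR adjusted p = 0.122, and 0.0411 with the replicate block, as well as 0.0234 without control siRNA with LPS replicate 1). Psrc1, a microtubule-associated protein of the mitotic spindle, was the next of this group. Its levels were 63.8, 53.4 and 60.0 CPM with control siRNA and 81, 87.7 and 89.7 CPM with SF3a1 siRNA without LPS, and 7.84, 19.6 and 24 CPM and 72.5, 76.2 and 82.6 CPM with LPS. The groups overlapped in neither, and the change passed the test in the presence of LPS (log2 fold change 2.18 ± 0.30, edgeR adjusted p = 0.000219) but not in its absence (log2 fold change 0.54 ± 0.28, edgeR adjusted p = 0.187). It did pass in the absence of LPS without control siRNA with LPS replicate 1 (edgeR adjusted p = 0.00769), without the 4 replicate 1 libraries (0.00607) and without the filter on low counts (0.078). Btg2, an antiproliferative cofactor of mRNA deadenylation, was at 26.9, 12.6 and 21.8 CPM with control siRNA and 31, 29 and 25.7 CPM with SF3a1 siRNA without LPS, and at 53, 47.9 and 63.7 CPM and 36.4, 32.6 and 34.3 CPM with LPS. It was the member of this group that fell with SF3a1 siRNA in the presence of LPS (log2 fold change -0.67 ± 0.23, edgeR adjusted p = 0.0387), a call that ended without replicate 3 of control siRNA with LPS (edgeR adjusted p = 0.131). Without LPS its log2 fold change was 0.48 ± 0.23 (edgeR adjusted p = 0.141), which passed with the replicate block (0.0434) and without replicate 1 of control siRNA without LPS (0.0207).

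**Figure D2:**
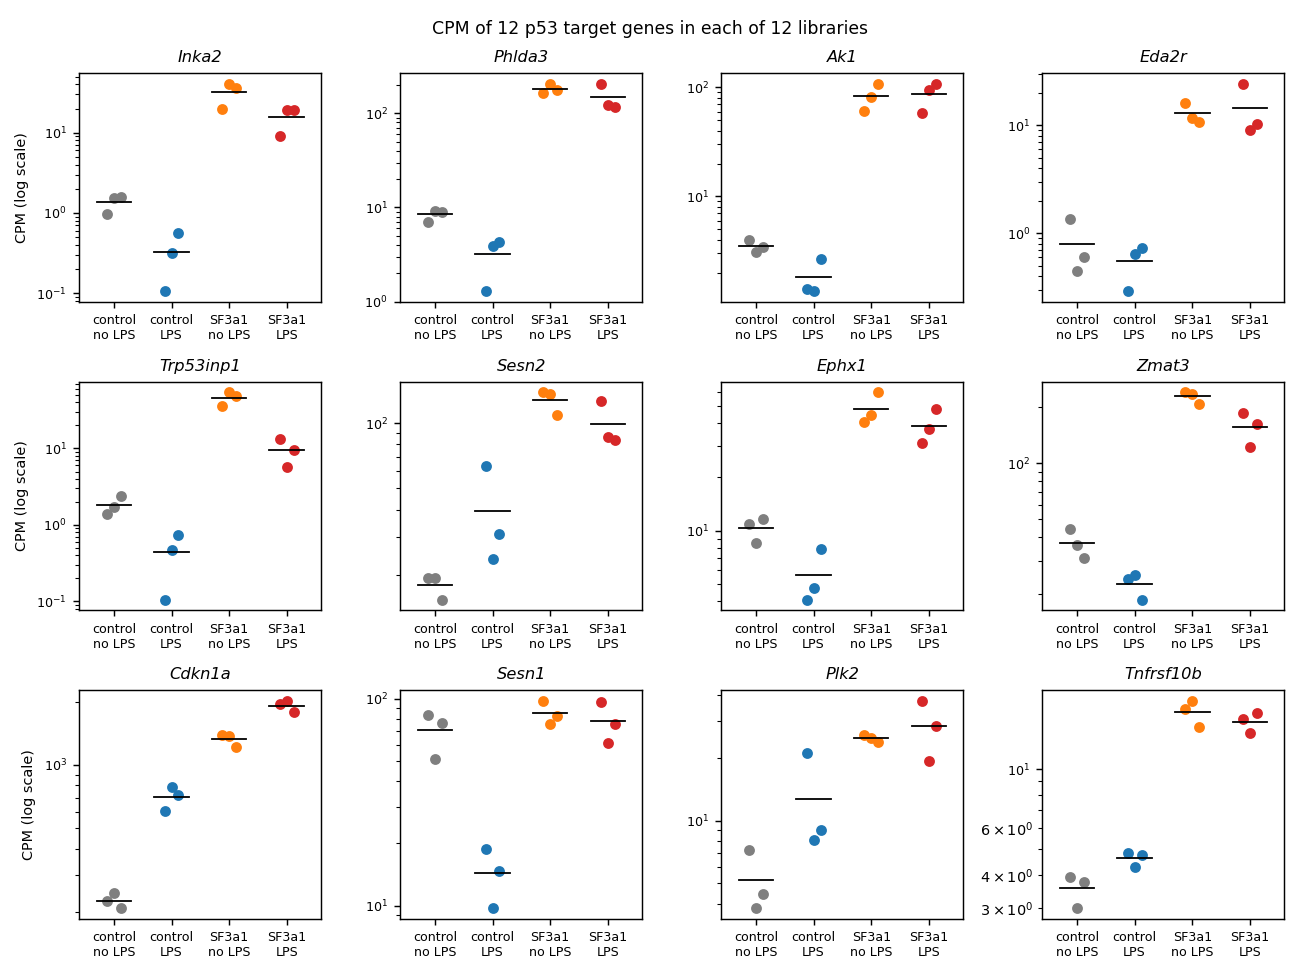
CPM (y axis, log scale) in each of the 12 libraries (points) of the 12 members with the largest SF3a1 effects, by group (x axis). The bar is the group mean, and within a group the points run from replicate 1 to replicate 3. The 3 libraries of SF3a1 siRNA without LPS are above the 3 of control siRNA without LPS in 11 of the 12 panels, the exception being Sesn1.

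Of the 10 death receptor and apoptosis genes tested, 6 were higher and 0 lower without LPS, where 13.7% and 20.1% of all genes were. With LPS 6 were higher and 2 lower, where 18.4% and 20.4% of all genes were, and the 2 lower are near the latter share. Tnfrsf10b (ENSMUSG00000022074, chr14:69767472-69784411), the receptor of the death ligand TRAIL, was at 3.94, 2.99 and 3.75 CPM with control siRNA and 16.9, 18.1 and 14.4 CPM with SF3a1 siRNA without LPS. With LPS it was at 4.84, 4.29 and 4.77 CPM and 15.4, 13.7 and 16.2 CPM. Libraries with the same siRNA differed little whether or not LPS was given, and the SF3a1 effect was 2.21 ± 0.19 (edgeR adjusted p = 1.79e-05) without LPS and 1.70 ± 0.18 (edgeR adjusted p = 5.66e-05) with LPS on the log2 scale. Eda2r (ENSMUSG00000034457, chrX:97333840-97377216), a receptor of ectodysplasin A2, was near the limit of detection in control cells. It was at 1.35, 0.447 and 0.596 CPM with control siRNA and 16.1, 11.8 and 10.9 CPM with SF3a1 siRNA without LPS, and at 0.289, 0.636 and 0.729 CPM and 24.4, 9.13 and 10.3 CPM with LPS. All 6 libraries with SF3a1 siRNA exceeded all 6 with control siRNA, and the log2 fold changes were 3.94 ± 0.50 (edgeR adjusted p = 0.000164) and 4.83 ± 0.55 (edgeR adjusted p = 6.9e-05).

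Fas (ENSMUSG00000024778, chr19:34290666-34327772), the receptor of Fas ligand, changed in opposite directions in the 2 comparisons. Its levels were 1.67, 0.447 and 1.75 CPM with control siRNA and 4.05, 5.96 and 5.5 CPM with SF3a1 siRNA without LPS, and 112, 158 and 214 CPM and 39.8, 71.2 and 52.3 CPM with LPS. In resting cells all 3 libraries with SF3a1 siRNA were above all 3 control libraries (log2 fold change 1.95 ± 0.40, edgeR adjusted p = 0.00351). In LPS-treated cells all 3 libraries with SF3a1 siRNA were below all 3 control libraries (log2 fold change -1.57 ± 0.34, edgeR adjusted p = 0.00423).

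Trp53inp1 (ENSMUSG00000028211, chr4:11156431-11174379), a stress protein that enhances p53 activity and autophagy, had the largest fold change of any member without LPS. It was at 1.38, 1.74 and 2.38 CPM with control siRNA and 36.1, 54.5 and 48.5 CPM with SF3a1 siRNA without LPS, and at 0.105, 0.477 and 0.729 CPM and 13.4, 5.74 and 9.53 CPM with LPS. The fitted gap between control and knockdown was alike in both comparisons, although the levels with LPS were lower throughout (log2 fold change 4.67 ± 0.45, edgeR adjusted p = 3.84e-05 without LPS, and log2 fold change 4.66 ± 0.52, edgeR adjusted p = 6.72e-05 with LPS). Taken by replicate number, with 0.1 CPM added, the log2 ratios were 4.615, 4.889 and 4.29 without LPS and 6.038, 3.34 and 3.538 with LPS. Replicate 1 of control siRNA with LPS had 4 counts of Trp53inp1. Aen, an exonuclease that degrades DNA in apoptosis, and Ei24, a protein of the endoplasmic reticulum linked to autophagy, rose by less. The log2 fold change of Aen was 1.47 ± 0.13 (edgeR adjusted p = 2.24e-05) without LPS and 0.96 ± 0.13 (edgeR adjusted p = 0.000186) with LPS, and that of Ei24 was 1.24 ± 0.16 (edgeR adjusted p = 0.000178) and 1.37 ± 0.16 (edgeR adjusted p = 8.33e-05).

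Of the apoptotic machinery proper, Apaf1, the scaffold of the apoptosome, and Pidd1, the scaffold of the complex that activates caspase-2, passed the test with LPS in opposite directions. Pidd1 was at 30.9, 26.3 and 25.7 CPM with control siRNA and 27.7, 33.4 and 28.3 CPM with SF3a1 siRNA without LPS, and at 12, 7.39 and 6.06 CPM and 13.6, 11.7 and 12.3 CPM with LPS. The groups overlapped both with LPS (log2 fold change 0.55 ± 0.23, edgeR adjusted p = 0.0824) and without (log2 fold change 0.11 ± 0.22, edgeR adjusted p = 0.773). The call with LPS was lost on leaving out any of 6 single libraries (edgeR adjusted p 0.103 to 0.264), namely SF3a1 siRNA without LPS replicate 3, control siRNA with LPS replicate 2 or 3, and any replicate of SF3a1 siRNA with LPS, and also without the filter on low counts (0.12) and with limma-voom (0.103). Its log2 fold change was 0.36 when replicate 3 of control siRNA with LPS was left out and 0.91 when replicate 1 of that group was. Apaf1 fell with SF3a1 siRNA in LPS-treated cells (log2 fold change -0.74 ± 0.28, edgeR adjusted p = 0.0628), with overlapping groups, and its call was lost without control siRNA with LPS replicate 1 or SF3a1 siRNA with LPS replicate 2 or 3 (edgeR adjusted p 0.12 to 0.285). Its log2 fold change was then as small as -0.38. Pmaip1, the BH3-only protein Noxa, and Triap1, a mitochondrial lipid transfer protein that restrains the apoptosome, did not pass. With LPS their log2 fold changes were 0.67 ± 0.45 (edgeR adjusted p = 0.295) and 0.38 ± 0.17 (edgeR adjusted p = 0.114), and both passed with the replicate block, at 0.0209 and 0.0376. Triap1 also passed without any of 3 control libraries, replicates 1 and 3 without LPS and replicate 3 with LPS (0.0622 to 0.0989), and Pmaip1 without the filter on low counts (0.047).

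Of the 6 DNA repair genes 2 were higher and 2 lower without LPS, where 13.7% and 20.1% of all genes were, and 3 were higher and 1 lower with LPS, where 18.4% and 20.4% were. With 6 genes these counts are too small to read as a result about the group. Ddb2 (ENSMUSG00000002109, chr2:91211572-91236982), which recognises UV damage for nucleotide excision repair, was at 9.12, 6.34 and 7.2 CPM with control siRNA and 2.77, 3.51 and 3.2 CPM with SF3a1 siRNA without LPS. With LPS it was at 1.76, 2.78 and 4.77 CPM and 1.73, 2.72 and 1.44 CPM. It fell with SF3a1 siRNA without LPS (log2 fold change -1.26 ± 0.35, edgeR adjusted p = 0.0181), and with LPS, where the groups overlapped, the log2 fold change was -0.66 ± 0.36 (edgeR adjusted p = 0.198). With LPS it passed as lower without control siRNA with LPS replicate 1 (0.0441), SF3a1 siRNA with LPS replicate 2 (0.097) or the 4 replicate 1 libraries (0.0672). Ddb2 overlaps Acp2 on the opposite strand, and whether the counting used the strand is not stated in the sources used here. Polh (ENSMUSG00000023953, chr17:46171355-46202645), the polymerase that copies past UV lesions, was at 49.9, 62.4 and 52.2 CPM with control siRNA and 37.1, 37.3 and 36.6 CPM with SF3a1 siRNA without LPS, and at 24.2, 28 and 24.3 CPM and 33.1, 29.1 and 38.1 CPM with LPS. It was lower with SF3a1 siRNA without LPS (log2 fold change -0.57 ± 0.14, edgeR adjusted p = 0.0117) and slightly higher with LPS (log2 fold change 0.39 ± 0.15, edgeR adjusted p = 0.058), and the groups overlapped in neither. The first call ended without control siRNA replicate 2 (edgeR adjusted p = 0.117). The second ended without any of 4 libraries with LPS, replicate 1 or 3 of either siRNA (edgeR adjusted p 0.1 to 0.198), without the 4 replicate 1 libraries together (0.122) and without the filter on low counts (0.229).

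Polk, another translesion polymerase, rose in both comparisons (1.48 ± 0.27 without and 1.16 ± 0.27 with LPS on the log2 scale, edgeR adjusted p = 0.0015 and 0.00586). With LPS its value fell to 0.71 when replicate 1 of SF3a1 siRNA, the highest of that group, was left out (edgeR adjusted p = 0.017). Ercc5, the endonuclease XPG of nucleotide excision repair, rose without LPS (log2 fold change 0.85 ± 0.16, edgeR adjusted p = 0.00167), and with LPS its log2 fold change was 0.34 ± 0.16 (edgeR adjusted p = 0.115), which passed with the replicate block (0.0615) and without control siRNA without LPS replicate 1 or 3 or SF3a1 siRNA with LPS replicate 2 (0.088 to 0.0992). Xpc, the damage sensor of the same pathway, did not pass without LPS (-0.07 ± 0.16, edgeR adjusted p = 0.8) and was slightly higher with LPS (log2 fold change 0.40 ± 0.16, edgeR adjusted p = 0.0794). That call was lost without any of 5 libraries, SF3a1 siRNA without LPS replicate 3, control siRNA with LPS replicate 1 or 2, and SF3a1 siRNA with LPS replicate 1 or 3 (edgeR adjusted p 0.104 to 0.229), without the 4 replicate 1 libraries together (0.199) and without the filter on low counts (0.34). Rrm2b, the p53-inducible subunit of ribonucleotide reductase, fell with SF3a1 siRNA in LPS-treated cells (log2 fold change -0.64 ± 0.20, edgeR adjusted p = 0.0298), but not without replicate 3 of control siRNA with LPS (edgeR adjusted p = 0.109). Its reads are uncertain because a pseudogene, Gm3362, overlaps it on the same strand.

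Among the 9 members of metabolism, redox defence and secretion, 5 were higher and 0 lower without LPS, where 13.7% and 20.1% of all genes were. With LPS 6 were higher and 0 lower, where 18.4% and 20.4% of all genes were. Ak1 (ENSMUSG00000026817, chr2:32621758-32635058), the cytosolic adenylate kinase that balances adenine nucleotides, was at 3.97, 3.08 and 3.45 CPM with control siRNA and 60.3, 81.8 and 108 CPM with SF3a1 siRNA without LPS. With LPS it was at 1.42, 1.35 and 2.69 CPM and 58, 94.8 and 108 CPM. The lowest library with SF3a1 siRNA was many times the highest control library in both comparisons, a 23.7-fold difference without LPS (log2 fold change 4.56 ± 0.33, edgeR adjusted p = 1.07e-05) and a 47.9-fold difference with LPS (log2 fold change 5.58 ± 0.35, edgeR adjusted p = 2.85e-06). Ephx1 (ENSMUSG00000038776, chr1:180976210-181020904), the microsomal epoxide hydrolase that detoxifies reactive epoxides, was at 10.9, 8.49 and 11.6 CPM with control siRNA and 40.8, 44.9 and 60.0 CPM with SF3a1 siRNA without LPS, and at 4.08, 4.77 and 7.91 CPM and 31.2, 37.3 and 48.3 CPM with LPS. The groups were well separated, with log2 fold changes of 2.23 ± 0.26 (edgeR adjusted p = 0.000111) and 2.81 ± 0.28 (edgeR adjusted p = 2.95e-05).

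The sestrins, which sense amino acids and restrain the growth kinase complex mTORC1, differed from each other. Sesn2 (ENSMUSG00000028893, chr4:132492032-132510501) was at 19.4, 19.4 and 15.4 CPM with control siRNA and 139, 136.6 and 109 CPM with SF3a1 siRNA without LPS, and at 63.4, 23.6 and 31 CPM and 127, 86.3 and 83.5 CPM with LPS. It rose in both (log2 fold change 2.82 ± 0.32, edgeR adjusted p = 8.93e-05 without LPS, and log2 fold change 1.32 ± 0.31, edgeR adjusted p = 0.00582 with LPS), and the groups overlapped in neither. Sesn1 (ENSMUSG00000038332, chr10:41809935-41908424) was at 83.5, 50.9 and 76.3 CPM with control siRNA and 97.7, 75.4 and 82 CPM with SF3a1 siRNA without LPS, and at 18.8, 9.7 and 14.7 CPM and 96.7, 61.1 and 75.3 CPM with LPS. The groups overlapped without LPS (log2 fold change 0.28 ± 0.25, edgeR adjusted p = 0.471, and 0.073 with the replicate block), whereas with LPS the control libraries were all below the SF3a1 siRNA libraries (log2 fold change 2.42 ± 0.27, edgeR adjusted p = 6.15e-05).

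Tigar, a fructose bisphosphatase that diverts glucose from glycolysis, rose modestly and evenly. It was at 76.2 to 78.2 CPM with control siRNA and 111 to 112 CPM with SF3a1 siRNA without LPS, and its log2 fold changes were 0.53 ± 0.11 (edgeR adjusted p = 0.00445) without LPS and 0.82 ± 0.11 (edgeR adjusted p = 0.000239) with LPS. Dcxr, a reductase of dicarbonyls and xylulose, also rose in both (0.73 ± 0.19 and 1.01 ± 0.19 on the log2 scale, edgeR adjusted p = 0.0116 and 0.00166). Fdxr, the mitochondrial ferredoxin reductase, did not pass in either. It was at 52.8, 39.5 and 44.2 CPM with control siRNA and 47.6, 41.6 and 44.4 CPM with SF3a1 siRNA without LPS, and at 30.1, 19.7 and 16.8 CPM and 27.1, 20.7 and 25.9 CPM with LPS. The SF3a1 siRNA and control values overlapped in both, with log2 fold changes of -0.03 ± 0.21 (edgeR adjusted p = 0.936) and 0.14 ± 0.21 (edgeR adjusted p = 0.663). With LPS Fdxr passed as higher without control siRNA with LPS replicate 1 (0.0853, log2 fold change 0.44). Rps27l, a ribosomal protein whose promoter held an element, varied widely between replicates, from 70.4 to 206 CPM with control siRNA and from 123 to 288 CPM with SF3a1 siRNA without LPS, with replicate 1 the lowest library of every group. Its log2 fold changes were 0.65 ± 0.55 (edgeR adjusted p = 0.426) and 1.01 ± 0.55 (edgeR adjusted p = 0.189), and both passed with the replicate block (0.0185 and 0.000623), and without the 4 replicate 1 libraries (0.046 and 0.00915), the second also without control siRNA with LPS replicate 3 (0.0733). Related ribosomal protein genes and pseudogenes resemble Rps27l, so its counts of uniquely mapping reads are uncertain. Gdf15, a secreted factor of the TGF-β family, had 129 counts in all libraries together. It was at 0.0459, 0.0447 and 0.256 CPM with control siRNA and 0.474, 0.502 and 0.223 CPM with SF3a1 siRNA without LPS, and at 0.816, 0.318 and 0.337 CPM and 1.39, 0.121 and 0.289 CPM with LPS. It did not pass with SF3a1 siRNA without LPS (log2 fold change 1.90 ± 0.95, edgeR adjusted p = 0.167) or with LPS (log2 fold change 0.30 ± 0.77, edgeR adjusted p = 0.818). Without LPS it passed with the replicate block (0.0978) and without control siRNA without LPS replicate 3 (0.0764, log2 fold change 3.12) or SF3a1 siRNA with LPS replicate 1 (0.083).

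The p53 gene did not pass the test in either comparison, whereas its inhibitor Mdm2 rose strongly in both. Trp53 was at 287, 256 and 244 CPM with control siRNA and 285, 257 and 269.5 CPM with SF3a1 siRNA without LPS, and at 217, 229.5 and 211 CPM and 247, 269 and 267 CPM with LPS. These ranges overlapped without LPS (log2 fold change 0.04 ± 0.12, edgeR adjusted p = 0.837) and were separate with LPS, where the difference was small (log2 fold change 0.25 ± 0.12, edgeR adjusted p = 0.123, and 0.0685 with the replicate block). RNA levels say nothing of the p53 protein, which is controlled mainly by its turnover. Mdm2 (ENSMUSG00000020184, chr10:117688875-117710758) was at 78.7, 106 and 95.9 CPM with control siRNA and 614, 810.0 and 827 CPM with SF3a1 siRNA without LPS, and at 206, 215 and 209.7 CPM and 712, 901 and 964 CPM with LPS. The groups were far apart in both comparisons (log2 fold change 3.002 ± 0.18, edgeR adjusted p = 4.1e-06 without LPS, and log2 fold change 2.03 ± 0.17, edgeR adjusted p = 1.26e-05 with LPS). Of the 14 p53 regulators listed, 11 were tested. Without LPS 1 was higher and 5 were lower, with a median log2 fold change of 0.01, and with LPS 2 were higher and 3 lower, with a median of -0.02. Of all genes 13.7% were higher and 20.1% lower without LPS, and 18.4% and 20.4% with LPS, so that the counts with LPS were near the background. Of the kinases that signal DNA damage to p53, Atm, Atr, Chek1 and Chek2 were all lower without LPS, and of these Atm and Atr were lower with LPS. Atm and Chek2 are named after their values were seen. Atm had log2 fold changes of -0.84 ± 0.29 (edgeR adjusted p = 0.0458) without LPS and -1.02 ± 0.29 (edgeR adjusted p = 0.0172) with LPS, and the former call was lost on leaving out any of 4 libraries without LPS, replicates 2 and 3 of either siRNA (edgeR adjusted p 0.136 to 0.163). Atr had log2 fold changes of -1.36 ± 0.27 (edgeR adjusted p = 0.00275) without LPS and -1.42 ± 0.27 (edgeR adjusted p = 0.00184) with LPS, and Chek1, which Atr activates, had -1.41 ± 0.21 (edgeR adjusted p = 0.000435) without LPS and -0.18 ± 0.21 (edgeR adjusted p = 0.562) with LPS. Without the 4 replicate 1 libraries Chek1 was lower with LPS too (log2 fold change -0.53, edgeR adjusted p = 0.0372). Chek2, which Atm activates, had -0.91 ± 0.20 (edgeR adjusted p = 0.00587) without LPS and -0.02 ± 0.21 (edgeR adjusted p = 0.959) with LPS. LPS by itself lowered Chek1 and Chek2 in control cells, with log2 fold changes of -1.48 ± 0.21 and -1.73 ± 0.21 (edgeR adjusted p = 0.000192 and 5.87e-05). Usp7, the deubiquitinase of Mdm2 and p53, fell in both, by 1.95-fold and 2.1-fold (edgeR adjusted p = 0.00102 and 0.000454). Cdkn2a, whose product Arf inhibits Mdm2, had 0 counts in all 12 libraries, which allows up to 0.235 CPM, here without TMM scaling, in the shallowest library (3 counts, covering counting error only).

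A further list of 20 p53 targets was examined in the same way. Without LPS 10 were higher and 1 was lower (median 0.52), and with LPS 7 were higher and 3 lower (median 0.15), against the shares of all genes given for the regulators. Without control siRNA with LPS replicate 1, 11 were higher with LPS, where 19.7% of all genes were in the same fit. Zfp365, a protein that guards genome stability, was near the limit of detection in control cells and rose in both comparisons (4.38 ± 0.57 without and 3.47 ± 0.58 with LPS, edgeR adjusted p = 0.00019 and 0.000766). Slc19a2, a thiamine transporter, did so too (2.27 ± 0.17 and 2.98 ± 0.18, edgeR adjusted p = 1.3e-05 and 2.85e-06). The cytokine Lif rose without LPS (log2 fold change 3.70 ± 0.64, edgeR adjusted p = 0.00112), and with LPS its log2 fold change was 0.09 ± 0.43 (edgeR adjusted p = 0.909).

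Cell cycle genes are silenced downstream of p21, and by other routes too, and 21 such genes were examined. All 21 were lower with SF3a1 siRNA without LPS (median -1.64 on the log2 scale), where 20.1% of all genes were. With LPS 13 of the 21 were lower and 0 higher (median -0.998), against 20.4% and 18.4% of all genes. LPS by itself lowered 20 of the 21 in control siRNA cells and raised 0 (median -1.155), where it lowered 18.3% of all genes, and after SF3a1 siRNA it lowered 3 and raised 0 (median -0.51), where it lowered 4.06%. The control libraries with LPS enter both the first of these and the SF3a1 comparison with LPS, and what the lower levels there contribute to the count of 13 was not tested. Birc5 and Aurkb, which act together in the chromosomal passenger complex, fell most. The log2 fold changes of Birc5 were -2.65 ± 0.29 (edgeR adjusted p = 7.68e-05) and -2.11 ± 0.29 (edgeR adjusted p = 0.000201), and those of Aurkb were -2.45 ± 0.24 (edgeR adjusted p = 3.83e-05) and -1.94 ± 0.23 (edgeR adjusted p = 0.000102). The spindle checkpoint kinase Bub1 (-2.11 ± 0.22 and -1.75 ± 0.22) and the topoisomerase Top2a (-2.07 ± 0.29 and -1.88 ± 0.28) fell in both as well (edgeR adjusted p of at most 0.000413). Some p53 targets, Sesn2 and Tnfrsf10b among them, also answer to the stress factors ATF4 and CHOP, so 15 genes of that response were examined, of which 14 were tested. Without LPS 3 were higher and 8 lower (median -0.51), and with LPS 0 were higher and 9 lower (median -0.58), where 13.7% and 20.1% of all genes were higher and lower without LPS and 18.4% and 20.4% with LPS. Nupr1, a stress-induced chromatin protein, had log2 fold changes of -2.44 ± 0.45 (edgeR adjusted p = 0.0017) and -2.84 ± 0.44 (edgeR adjusted p = 0.000491). The transcription factor Atf3 (-1.35 ± 0.32 and -2.43 ± 0.33) and Chac1, which degrades glutathione (-2.14 ± 0.63 and -2.18 ± 0.59), fell in both as well (edgeR adjusted p of at most 0.0231). The 3 genes that were higher without LPS were Ddit4, an inhibitor of mTORC1 signalling, Ddit3, which encodes CHOP itself, and Ppp1r15a, a phosphatase subunit that restores translation, and they are named after their values were seen. Ddit4 was at 6.81, 9.52 and 11.1 CPM with control siRNA and 21.8, 42.1 and 34.7 CPM with SF3a1 siRNA without LPS (log2 fold change 1.85 ± 0.43, edgeR adjusted p = 0.00651). Ddit3 was at 7.04, 6.21 and 6.17 CPM and 18.1, 15.9 and 16.4 CPM (log2 fold change 1.37 ± 0.46, edgeR adjusted p = 0.0445), and Ppp1r15a had a log2 fold change of 0.98 ± 0.29 (edgeR adjusted p = 0.0236). The groups of Ddit4 and Ddit3 were separate without LPS and overlapped with LPS. With LPS the log2 fold changes of Ddit4, Ddit3 and Ppp1r15a were 0.78 ± 0.42, 0.55 ± 0.45 and 0.05 ± 0.28 (edgeR adjusted p = 0.181, 0.395 and 0.925). Without control siRNA with LPS replicate 1, the highest control library with LPS for both, Ddit4 and Ddit3 were higher with LPS as well (edgeR adjusted p = 0.00264 and 0.000337), Ddit3 also was with the replicate block (0.0928), and Ddit4 also was without the filter on low counts (0.0234). Without that library 3 genes of the list were called higher with LPS and 7 lower (19.7% and 19.6% of all genes in that fit), and without control siRNA without LPS replicate 3 those lower without LPS were 5 (13.6% of all genes). Trib3, a pseudokinase, was close to the threshold (-1.91 ± 0.68 and -1.71 ± 0.63, edgeR adjusted p = 0.0568 and 0.0587), and it lost its call under several of the settings tried.

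**Figure D3:**
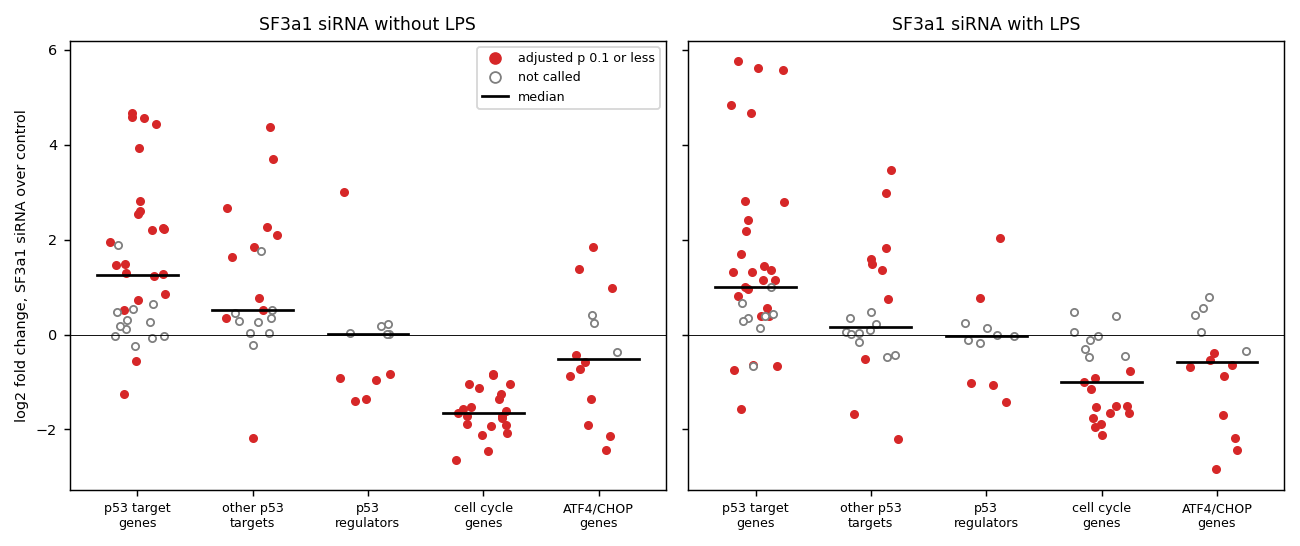
Log2 fold change of SF3a1 siRNA over control siRNA (y axis) for the genes of 5 lists (x axis), without LPS (left) and with LPS (right). Each point is a gene, filled where the adjusted p was 0.1 or less, and the bar is the list's median. The p53 target genes have medians of 1.25 and 1.01, and the cell cycle genes -1.64 and -0.998.

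LPS by itself lowered more of the p53 target genes than it raised. In control siRNA cells 15 of the 34 members fell with LPS and 8 rose, against 18.3% and 13.8% of all genes tested (32.1% in either direction), and 11 did not pass. The members' median log2 fold change was -0.38, and all 3 libraries with LPS were below all 3 without for 16 members and above for 10 (23.0% and 17.2% of all genes). Those that rose were Cdkn1a, Btg2, Plk2, Plk3, Fas, Aen, Sesn2 and Gdf15. In the values given above, Fas stood out, with the 3 control libraries below 2 CPM without LPS and above 100 CPM with LPS (log2 fold change 6.92 ± 0.45, edgeR adjusted p = 2.48e-07). Cdkn1a rose 3.1-fold (log2 fold change 1.63 ± 0.14, edgeR adjusted p = 2.53e-06), Plk3 3.35-fold (log2 fold change 1.74 ± 0.21, edgeR adjusted p = 4.48e-05) and Btg2 2.68-fold (log2 fold change 1.42 ± 0.23, edgeR adjusted p = 0.000511). Sesn2 rose as well (log2 fold change 1.13 ± 0.31, edgeR adjusted p = 0.0154), though its log2 fold change was 0.60 without replicate 1 of control siRNA with LPS, by far the highest of its group. For Plk2 (log2 fold change 1.30 ± 0.37, edgeR adjusted p = 0.0195) the same library decided the call, which without it had an edgeR adjusted p of 0.115 and a log2 fold change of 0.71. The call of Gdf15 (log2 fold change 2.24 ± 0.92, edgeR adjusted p = 0.0955) was lost on leaving out any of 9 of the 12 libraries, all but control siRNA without LPS replicate 3 and SF3a1 siRNA with LPS replicates 1 and 2 (edgeR adjusted p 0.105 to 0.357). Its log2 fold change was 3.38 without the first of these.

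The members lowered by LPS in control cells included 9 whose log2 fold change was beyond -1. Sesn1 (log2 fold change -2.27 ± 0.27, edgeR adjusted p = 4.08e-05), Trp53inp1 (log2 fold change -2.26 ± 0.54, edgeR adjusted p = 0.00772) and Inka2 (log2 fold change -2.20 ± 0.57, edgeR adjusted p = 0.012) fell most. Psrc1 (log2 fold change -1.80 ± 0.30, edgeR adjusted p = 0.000613), Pidd1 (log2 fold change -1.69 ± 0.23, edgeR adjusted p = 0.000131) and Phlda3 (log2 fold change -1.48 ± 0.37, edgeR adjusted p = 0.00971) followed, in each with no overlap between the 3 libraries with and the 3 without LPS. Ddb2, Polh and Fdxr fell by 2.46-fold, 2.15-fold and 2.04-fold (edgeR adjusted p = 0.015, 0.000116 and 0.00272), and for Ddb2 the log2 fold change was -0.82 without the replicate 1 libraries. Smaller decreases were found for Ak1, Ephx1, Xpc, Zmat3, Dcxr and Ccng1, from -0.96 to -0.37 on the log2 scale. Of these, Ccng1 and Ak1 were called no longer without any of 3 libraries (for both, control siRNA replicate 1 with or without LPS; for Ccng1 also control siRNA without LPS replicate 2, and for Ak1 control siRNA with LPS replicate 2), with edgeR adjusted p of 0.122 to 0.136 and 0.143 to 0.185. Dcxr was called no longer without any of 10 libraries, all but control siRNA with LPS replicate 3 and SF3a1 siRNA without LPS replicate 1 (edgeR adjusted p 0.1 to 0.377), nor with RLE or upper quartile scaling (0.106 and 0.133), with limma-voom (0.123) or without the filter on low counts (0.251), and its log2 fold change was -0.29 without control siRNA without LPS replicate 3. Ephx1, Ccng1 and Ak1 were called no longer without the 4 replicate 1 libraries together (edgeR adjusted p = 0.104, 0.144 and 0.141), where the log2 fold change of Ak1 was -0.64. Ccng1 also lost its call without the filter on low counts (edgeR adjusted p = 0.205), and Ak1 with limma-voom (adjusted p = 0.146). Ei24 and Triap1 passed as lower, and Rrm2b as higher, with the replicate block (0.0137, 0.0519 and 0.0844). Leaving out a library did the same for Ei24 (control or SF3a1 siRNA with LPS replicate 2, 0.0885 and 0.0984), Triap1 (control siRNA without LPS replicate 1, 0.0623) and Rrm2b (control siRNA with LPS replicate 1, 0.0427), and leaving out the 4 replicate 1 libraries made Apaf1 pass as lower (0.0912).

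After SF3a1 siRNA fewer members passed the test for LPS. Of the 34, 4 rose (Cdkn1a, Plk3, Fas and Tigar) and 4 fell (Pidd1, Trp53inp1, Ercc5 and Fdxr), against 6.60% and 4.06% of all genes (10.7% in either direction), and the median log2 fold change was -0.17. With the replicate number as a block, 14 members and 3115 genes (20.8%) were called in place of 8 and 1598. Ccng1, Inka2, Zmat3, Apaf1 and Polk then passed as lower (edgeR adjusted p = 0.0776, 0.000895, 0.023, 0.0238 and 0.0641) and Aen as higher (0.033). Without the 4 replicate 1 libraries 15 members were called, against 15.1% of all genes, with Phlda3 (0.00813) and Sesn2 (0.0893) among those gained, both as lower. Leaving out single libraries gained Inka2 (control siRNA with LPS replicate 1, or SF3a1 siRNA without LPS replicate 1), Zmat3 (control siRNA without LPS replicate 1 or 3, or SF3a1 siRNA with LPS replicate 1), Apaf1 (replicate 1 with LPS of either siRNA), Aen (control siRNA with LPS replicate 1) and Polk (SF3a1 siRNA with LPS replicate 1), at an edgeR adjusted p of 0.00533 to 0.0936. Fas again rose most (log2 fold change 3.40 ± 0.38, edgeR adjusted p = 8.6e-05), and Plk3 (log2 fold change 0.87 ± 0.20, edgeR adjusted p = 0.0189), Cdkn1a (log2 fold change 0.53 ± 0.14, edgeR adjusted p = 0.0327) and Tigar (log2 fold change 0.47 ± 0.11, edgeR adjusted p = 0.023) rose less. The call of Cdkn1a ended without SF3a1 siRNA without LPS replicate 3 (edgeR adjusted p = 0.144), and without the filter on low counts neither Cdkn1a nor Tigar passed (0.11 and 0.175). Trp53inp1 (log2 fold change -2.27 ± 0.40, edgeR adjusted p = 0.00307) and Pidd1 (log2 fold change -1.25 ± 0.22, edgeR adjusted p = 0.00361) fell by amounts near those in control cells, and Fdxr (log2 fold change -0.86 ± 0.21, edgeR adjusted p = 0.0255) and Ercc5 (log2 fold change -0.68 ± 0.16, edgeR adjusted p = 0.0179) fell as well. The call of Fdxr ended without SF3a1 siRNA with LPS replicate 2 (edgeR adjusted p = 0.103).

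The difference between the LPS effects, which equals the difference between the SF3a1 effects, was tested as an interaction. It passed for 6 of the 34 members, where 3.47% of all genes passed. In 3 of the 6 it was positive and in 3 negative, as it was for 1.54% and 1.94% of all genes. For Sesn1 (2.14 ± 0.36, edgeR adjusted p = 0.0122), Psrc1 (1.64 ± 0.41, edgeR adjusted p = 0.0624) and Polh (0.96 ± 0.21, edgeR adjusted p = 0.0337) the SF3a1 effect was more positive with LPS. These are genes that LPS lowered in control cells, and whose levels with SF3a1 siRNA overlapped between LPS-treated and untreated cultures. For Fas (-3.52 ± 0.53, edgeR adjusted p = 0.00632), Cdkn1a (-1.11 ± 0.19, edgeR adjusted p = 0.0134) and Btg2 (-1.15 ± 0.32, edgeR adjusted p = 0.0973) it was less positive or negative with LPS. These are genes that LPS raised in control cells, and whose log2 fold change for LPS was smaller after SF3a1 siRNA. Mdm2 was of the second kind (-0.97 ± 0.23, edgeR adjusted p = 0.0546). The interaction of Btg2 was lost on leaving out any single library but replicate 1 of control siRNA without LPS (edgeR adjusted p 0.101 to 0.199), that of Polh without replicate 2 of that group (0.107), and that of Psrc1 without any of 8 libraries (0.101 to 0.149), which were the 6 without LPS and SF3a1 siRNA with LPS replicates 2 and 3. With the replicate block 12 members passed, against 11.7% of all genes, the additional ones being Plk2 (0.0446), Plk3 (0.0326), Inka2 (0.0806), Aen (0.0634), Sesn2 (0.0104) and Ak1 (0.0592). Sesn2 also passed without control siRNA with LPS replicate 2 (edgeR adjusted p = 0.0517) or SF3a1 siRNA with LPS replicate 1 (0.0778), and Phlda3 did without the filter on low counts (0.00736).

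**Figure D4:**
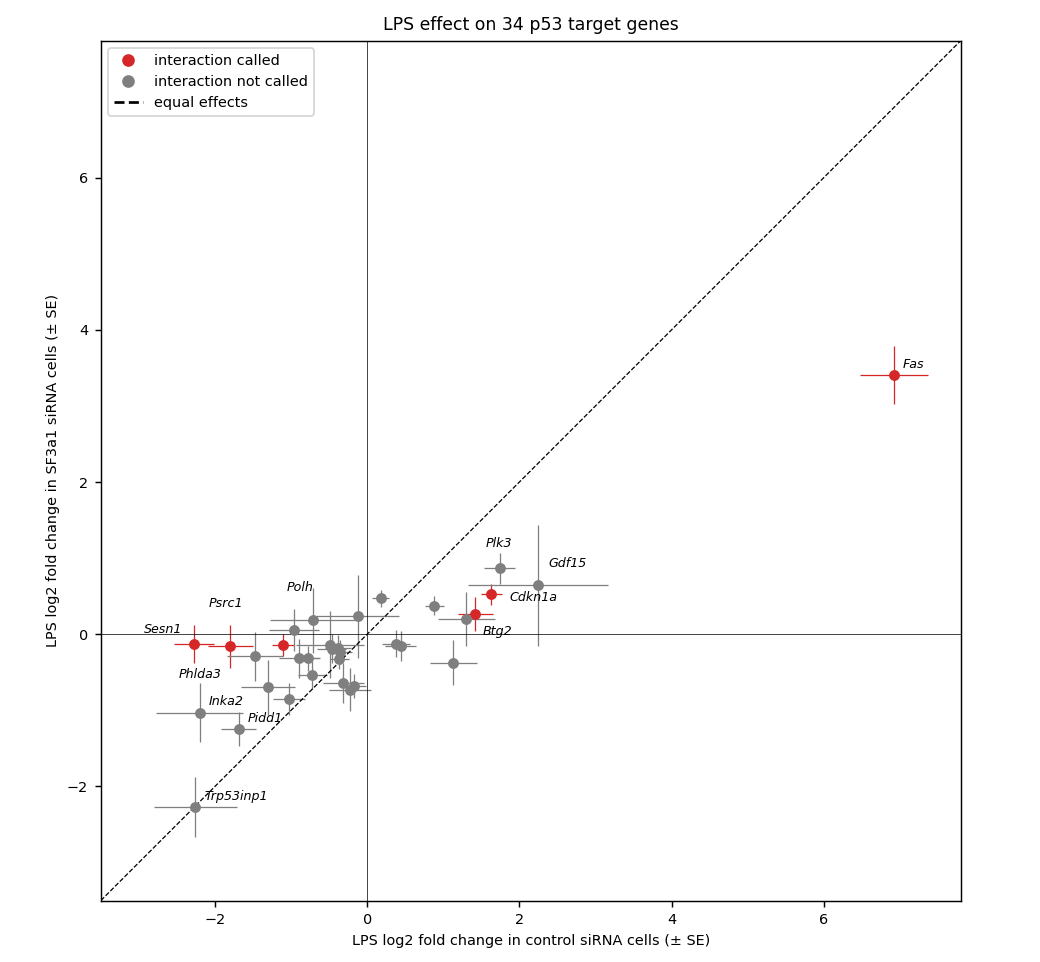
LPS log2 fold change of the 34 p53 target genes in SF3a1 siRNA cells (y axis) against that in control siRNA cells (x axis), with SE bars. The dashed line marks equal effects, and the 6 members whose interaction passed are in red. Sesn1, Psrc1 and Polh lie near 0 on the y axis and below -1 on the x axis, and Fas lies far below the line at 6.92 and 3.40.

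Exon usage was a second readout of these genes. The authors cut each gene into bins at annotated exon borders and counted reads in each, and the change of each bin relative to its gene as a whole was tested with edgeR's diffSpliceDGE in 11 libraries, since control siRNA with LPS replicate 3 was not analysed here at this level and that group had n = 2. Of the members, 33 could be tested, in 428 bins. Without LPS, SF3a1 siRNA changed the usage of 6 bins in 2 members, Ak1 and Psrc1, where 6.16% of all 10609 genes had a called bin. With LPS it changed 13 bins in 3 members, Ak1, Cdkn1a and Psrc1, where 5.03% did. With 2 and 3 of 33 members the counts are small, the first is near the share over all genes, and neither is read as a result about the members as a set. LPS changed 0 members with control siRNA (0.462% of all genes) and 0 with SF3a1 siRNA (0.104%) in diffSpliceDGE. At an unadjusted p under 0.05 there were 12 and 7 of the 428 bins, in 8 and 4 members, against 1.97% and 1.29% of all 153624 bins. limma's diffSplice called 1 member, Zmat3, for LPS with control siRNA and 0 for LPS with SF3a1 siRNA.

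Cdkn1a has an upstream first exon (chr17:29090979-29091101, 123 bases) and a downstream one (chr17:29093769-29093861, 93 bases), both noncoding, and the p53 element shown above ends 31 bases before the upstream one. Another annotated start, in a bin directly before the first coding one (chr17:29097900-29098396), held 0.251% to 0.792% of the Cdkn1a bin counts, did not pass the test with SF3a1 siRNA (log2 change relative to the gene 0.30 and 0.06, both with a diffSpliceDGE adjusted p of 1) and is left out of the shares that follow. Of the reads in the upstream and downstream exons, the upstream exon took 21.5%, 12.6% and 14% with control siRNA and 39.6%, 33.8% and 32.5% with SF3a1 siRNA without LPS. With LPS it took 7.13% and 5.12% with control siRNA and 35.4%, 22.9% and 22.5% with SF3a1 siRNA. Every library with SF3a1 siRNA was above every control library, and the control libraries with LPS were the lowest of all. The group means were 16% ± 4.79 (SD, n = 3) and 35.3% ± 3.78 (SD, n = 3) without LPS, and 6.12% ± 1.42 (SD, n = 2) and 26.9% ± 7.34 (SD, n = 3) with LPS. Relative to the whole gene, the upstream exon rose with SF3a1 siRNA in the presence of LPS (log2 change 2.37, diffSpliceDGE adjusted p = 0.000604). That call ended without control siRNA with LPS replicate 1, which left 1 control library (0.139). Without LPS the change was 1.22 (diffSpliceDGE adjusted p = 0.111), and it passed with the replicate block (9.87e-06). Cdkn1a also had a called bin there without control siRNA without LPS replicate 1 or SF3a1 siRNA with LPS replicate 1. It did so too without replicate 1 or 2 of control siRNA with LPS, either of which left 1 library in that group. For LPS with control siRNA the change of the upstream exon was -1.57 (0.347) and with the block -1.68 (1.89e-05). The downstream exon did not pass the test relative to the gene (-0.27 without LPS and -0.19 with LPS, both with an adjusted p of 1).

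In Psrc1, SF3a1 siRNA raised 3 adjoining bins of an intron that an annotated transcript retains (chr3:108383937-108384235). The middle one (chr3:108384108-108384215) held 0.851%, 0.7% and 0.557% of all Psrc1 bin counts with control siRNA and 5.51%, 6.13% and 5.09% with SF3a1 siRNA without LPS. With LPS it held 0.187% and 0.804% with control siRNA and 7.2%, 4.74% and 4.83% with SF3a1 siRNA. All 6 libraries with SF3a1 siRNA were several times above all 5 control libraries. The log2 change relative to the gene was 2.94 without LPS and 3.73 with LPS (diffSpliceDGE adjusted p = 1.58e-07 and 0.000473). The value with LPS rests on 1 and 3 counts of this bin in the 2 control libraries, and the call ended without control siRNA with LPS replicate 1, which left 1 control library (2.74, adjusted p = 0.379). The first of the bins, where another annotated transcript starts, changed alike (2.88 and 4.48, adjusted p = 7.52e-07 and 0.000167), with 0 and 2 counts in the control libraries with LPS and no call without the same library (3.13, adjusted p = 0.301). The last, of 20 bases, passed without LPS (2.05, adjusted p = 0.015) but not with LPS (2.98, adjusted p = 0.186), and its call without LPS was lost without replicate 1 or 2 of control siRNA or replicate 2 or 3 of SF3a1 siRNA (adjusted p 0.124 to 0.345).

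Ak1 was counted at the exon level as 1 unit with its neighbour Eng, the TGF-β co-receptor endoglin, because transcripts of the 2 genes are joined in the annotation. A change in the share of its bins can therefore mean unequal change of the 2 genes, and no coordinates are given for them. Of the 3 bins called without LPS 1 rose and 2 fell (log2 change relative to the unit 1.97, and -1.57 and -1.97), and of the 10 called with LPS 6 rose and 4 fell (from -2.50 to 4.12). The bin that rose in both held 4.25%, 8.65% and 7.57% of the unit's counts with control siRNA and 20.2%, 28.4% and 24.6% with SF3a1 siRNA without LPS. With LPS it held 1.34% and 3.92%, and 25.1%, 34.8% and 31.4%. Its change was 1.97 without LPS and 3.94 with LPS (diffSpliceDGE adjusted p = 0.00319 and 2.59e-06). Without control siRNA without LPS replicate 1 the first was 1.61 (adjusted p = 0.161), and without control siRNA with LPS replicate 1, which left 1 control library, the second was 2.97 (0.225), and Ak1 then had no called bin in that comparison. At the gene level Eng, looked up after its values were seen, had log2 fold changes of 1.82 ± 0.44 (edgeR adjusted p = 0.00887) without LPS and 1.18 ± 0.44 (edgeR adjusted p = 0.0595) with LPS, less than those of Ak1.

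**Figure D5:**
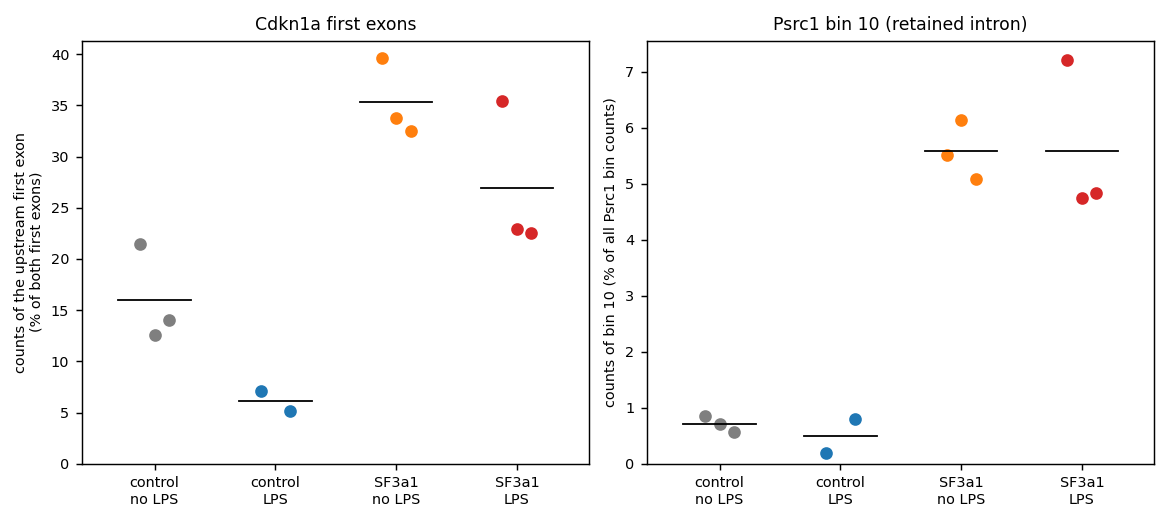
Left, the share of counts in the upstream and downstream first exons of Cdkn1a that fell in the upstream one (y axis, percent) in each of 11 libraries (points), by group (x axis). Right, the share of all Psrc1 bin counts in the middle bin of the retained intron (y axis, percent). Bars are group means, and control siRNA with LPS has 2 libraries. In both panels every library with SF3a1 siRNA is above every library with control siRNA.

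Per base of exon, the members spanned several orders of magnitude in resting control cells. RPKM, which is the CPM divided by the exon length in kilobases, was highest for Rps27l (179 ± 84.6, SD, n = 3), Cdkn1a (64.0 ± 5.44) and Triap1 (37.1 ± 7.24). Cdkn1a lay above Triap1 by more than the spread of either, whereas Triap1 and the next gene, Ccng1 (31.6 ± 1.06), did not differ beyond theirs. At the other end were Trp53inp1 (0.283 ± 0.0789), Inka2 (0.283 ± 0.0708), Eda2r (0.136 ± 0.0824), Gdf15 (0.0623 ± 0.0655) and Perp (0.00392 ± 0.00678, from 1 count), where Inka2 lay above Eda2r by more than the spread of either and the other neighbours did not differ beyond theirs. The first 3 of these were among the members with the largest fold changes with SF3a1 siRNA, whereas Gdf15 was not called and Perp was not tested.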

How the data were processed

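Single-end Ion Proton reads of polyadenylated RNA were made from 12 cultures. The authors kept reads of at least 30 nt, aligned them to mm10 with GSNAP, retained unique alignments and deposited whole-number counts, without normalization, per gene (htseq-count) and per exon bin (DEXSeq's counting script), both on Ensembl genes. Replicate 1 joins 2 runs. Whether strand was used is not given in the sources used here.

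Here the deposited counts were scaled by TMM, filtered with filterByExpr and fitted with edgeR 4.0.16 (R 4.3.3) over all 12 libraries with 1 mean per group. Reads assigned to no annotated feature entered neither the library sizes nor the tests. Genes were called at a false discovery rate of 0.1 (Benjamini-Hochberg over all genes tested). Exon bins, in genes where the filter left at least 2, were tested with edgeR's diffSpliceDGE at the same rate, which was also adjusted over all bins. Bin coordinates were rebuilt from GENCODE vM21 (mm10) for 269697 of 354841 bins. limma 3.58.1, DESeq2 1.42.0, other scalings, no filter, a false discovery rate of 0.05, the replicate number as a block and the omission of libraries were alternatives. The steps were tested on simulated data. Replicates are biological replicates of 1 cell line per the labels, so p-values measure the spread between cultures of that line.

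The labels do not say whether replicate numbers pair the samples. Deviations from the group means correlated at over 0.1 in all 18 pairs with the same number (0.135 to 0.681, median 0.457), against 11 of the 36 other pairs (-0.613 to 0.448). Those 11 all joined a replicate 2 with a replicate 3, and every pair of replicate 1 with another number correlated negatively. The numbers thus set replicate 1 apart, whereas replicates 2 and 3 were less clearly paired. Control siRNA without LPS replicate 3 correlated at 0.448 with SF3a1 siRNA with LPS replicate 2 and at 0.135 with its replicate 3. Pairing and the added run and depth of replicate 1 cannot be told apart.

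The 35 members, the other lists and the rules were chosen with earlier results of these data known. Every member is named. Values in every library are given for the 12 called members with the largest SF3a1 effect and for those called for LPS with a log2 fold change of at least 1 in size. Of each other list at most 4 called genes are named by rule, plus Trp53 and Mdm2. Genes marked above as named or looked up after their values were seen (Atm, Chek2, Ddit4, Ddit3, Ppp1r15a and Eng) come on top of these. A gene that this rule also names is not reported here. Gene positions are those of GENCODE vM21, and promoter sequences those of RefSeq.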

Additional observations from a re-analysis of the deposited data

Results flagged for a closer look

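The SF3a1 siRNA effect differed between cultures with and without LPS for 6 of the 34 p53 target genes tested, by the interaction term of the edgeR fit. Of all genes tested 3.47% passed. The log2 difference, with LPS minus without LPS, was 2.14 for Sesn1 (edgeR adjusted p = 0.0122), 1.64 for Psrc1 (0.0624) and 0.96 for Polh (0.0337). It was -3.52 for Fas (edgeR adjusted p = 0.00632), -1.11 for Cdkn1a (0.0134) and -1.15 for Btg2 (0.0973). Leaving out a single library ended the call of Btg2 for 11 of the 12 libraries, of Psrc1 for 8 and of Polh for 1. Fas, Cdkn1a and Sesn1 kept theirs under every alternative run. With 3 libraries a group, no test was made of a single library's distance from the others of its group.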

How the results depend on the processing

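Of the members called, 21 of 22 for SF3a1 siRNA without LPS, 19 of 26 for SF3a1 siRNA with LPS, 17 of 23 for LPS with control siRNA, 5 of 8 for LPS with SF3a1 siRNA and 3 of 6 for the interaction (Cdkn1a, Fas and Sesn1) kept their call under every alternative run, and no member changed direction. Members called only under an alternative numbered 5, 7, 4, 8 and 7 in the same order. Calls kept or gained were not counted over all genes. Whether the members' calls were more or less stable than those of other genes was not tested. Counts of called members and of all genes stayed within 1.5 times of those reported for both SF3a1 comparisons and for LPS with control siRNA.

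With the replicate number as a block, LPS with SF3a1 siRNA had 14 members and 3115 genes called, and the interaction 12 members and 1756 genes, in place of 8, 1598, 6 and 520. Exon usage under the block changed in 5 members for SF3a1 siRNA without LPS (Ak1, Cdkn1a, Ei24, Psrc1 and Rps27l; 11.5% of all genes), 6 with LPS (Ak1, Cdkn1a, Pidd1, Psrc1, Sesn1 and Zmat3; 10.4%) and 1 for LPS with control siRNA (Cdkn1a; 1.22%). Besides the calls given beside each member, the replicate block changed the following calls of other genes that are named, all of them gained: Trp53 for LPS with control siRNA, Chek2, Slc19a2, Atf3 and Ppp1r15a for the interaction, and Eng, Zfp365, Aurkb, Bub1, Top2a, Nupr1 and Chac1 for LPS with SF3a1 siRNA. It changed no other call of a named gene.

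The log2 fold change of Ddit4 for LPS with control siRNA, 0.27 and not called, was -0.72 without the replicate 1 libraries (edgeR adjusted p = 0.0262) and ranged from there to 0.58 on leaving out libraries. The interaction count for all genes was 921 with DESeq2, 930 without the filter and 306 at a false discovery rate of 0.05, and for members 10 without the filter. limma's diffSplice called 1 member, Zmat3, for LPS with control siRNA, and 0.415% of all genes. Leaving out libraries gave 7 to 15 members and 1050 to 2238 genes for LPS with SF3a1 siRNA, and 3 to 8 members and 273 to 1012 genes for the interaction. In exon usage it gave 0 to 5 members for SF3a1 siRNA with LPS, the 0 without control siRNA with LPS replicate 1, which left 1 library assumed to vary like the other groups and had 0.761% of all genes called. The causes of these shifts were not tested. Depth limits what can be said of Perp, with 4 counts in all libraries and not tested. It also limits what can be said of Gdf15, Eda2r, Inka2 and Trp53inp1, with few counts in control libraries, for Trp53inp1 in those with LPS.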

Other observations

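Outside the members, 42 tested genes had a p53 element by the same search, with at most 2 mismatches, in the same promoter window. Without LPS 9 of them were higher and 10 lower with SF3a1 siRNA, where 13.7% and 20.1% of all genes were, and with LPS 8 were higher and 9 lower, where 18.4% and 20.4% were. Zfp365, the gene of the further p53 target list with the largest change, was the highest of them without LPS.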
